A study of Mus musculus with 103 samples.

Results

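The regions described here are peaks of the liver X receptor (LXR) that lay inside a gene, away from every transcript start, and shared no base with a peak of SREBP1. They came from mouse macrophages and numbered 16632 of the 40660 peaks in the authors' LXR list (40.9%). They were chosen by measured values, the peak calls of both ChIP-seq lists, together with the peak positions. An LXR peak was a member if none of its bases fell in any of the 13984 SREBP1 peaks, if its centre was more than 1 kb from every transcript start in the RNA table, and if that centre lay between the start and end of at least 1 transcript. Everything below that comes from these lists is therefore a description with no test, while the RNA levels played no part in the choice.

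All cells were peritoneal macrophages elicited with thioglycollate in male C57BL/6 mice of 6 to 8 weeks and kept overnight in 0.5% serum before treatment. Both ChIP libraries were labelled GW3965, a synthetic LXR agonist (1 µM), and each used a mixture of 3 antibodies against its factor. The SREBP1 sample was labelled 18 h of GW3965. For the LXR sample the labels conflicted: its title named GW3965, its treatment field named an untreated control, the growth protocol gave 24 h of GW3965 and the peak list's header named 5 h. RNA was measured in 6 poly(A) libraries: untreated cells for the 1 to 12 h series, cells given 100 ng/ml of KLA (Kdo2-lipid A, an agonist of Toll-like receptor 4) for 1, 6 or 12 h, untreated cells for the 24 h series, and cells given KLA for 24 h. There was 1 library per condition, and no RNA library with GW3965 alone was used here, so RNA describes KLA and not the agonist that was used for the ChIP.

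LXRα and LXRβ are nuclear receptors that bind DNA as partners of the retinoid X receptor and are activated by oxysterols and by desmosterol, a precursor of cholesterol. In macrophages they induce genes that export cholesterol, such as Abca1 and Abcg1, and genes of fatty acid synthesis, partly through Srebf1, the gene of SREBP1. SREBP1 is a membrane-bound transcription factor released by proteolysis that drives fatty acid synthesis. LXR also limits inflammatory genes switched on by Toll-like receptors, and much of its binding is at enhancers inside or between genes.

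The LXR list was called from 7501248 tags and the SREBP1 list from 24395376, each scaled by the authors to 10000000 tags. Approximate IP efficiency, as the authors' peak caller gave it, was 17.85% for LXR and 1.75% for SREBP1, so a lack of a SREBP1 peak says only that none was called in a library with few tags in peaks. RNA libraries held 2205187 to 2674826 reads, which makes 3 reads on a 1 kb transcript equal to 1.12 to 1.36 RPKM (a read count divided by transcript length and library total). Macrophage markers summed to 6693 to 11339 RPKM in every library and were far above each other marker list, the highest of which were fibroblast and mesothelial markers at 107 to 193 RPKM and neutrophil markers at 60.2 to 140.

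Members were of ordinary height for the LXR list. Their normalised tag count had a median of 28.0 and quartiles of 20 and 45.3, against a median of 28.0 for the 14521 intergenic LXR peaks without SREBP1 and 24 for the 5701 promoter peaks without SREBP1. The 1304 intragenic distal LXR peaks that did share bases with SREBP1 were taller, with a median of 41.3. In raw numbers the median member rested on 21 LXR tags and on a 19.4-fold excess over the input, and the weakest member reached 9.3 normalised tags. Only 984 members (5.92%) reached 100 normalised tags, and 27 reached 400.

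Peaks on either side of the rule's limits were as follows. Just inside the distance limit were peaks in Vdr, the vitamin D receptor gene (1002 bases from a start, 17.3 normalised tags), Sin3a (1002 bases, 38.7) and Frrs1 (1003 bases, 374.6). Just outside were peaks at Ccl3, a chemokine gene (1000 bases, 38.7), Gm5431 (999 bases, 16) and Ctbp1 (997 bases, 21.3). On the SREBP1 side, 8 members touched a SREBP1 peak without sharing a base, among them peaks in Cradd (213.3 normalised tags), Mtfr1 (140) and Ston2 (94.7). Peaks in Snap23 (201.3), 1700016C15Rik (97.3) and Dr1 (66.7) shared 1 base and were left out.

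The 20 tallest members lay in 19 genes. First was a peak in Col4a3bp, which encodes the ceramide transfer protein, at chr13:97363662-97363846 of mm9, 51064 bases from the start, with 665.2 normalised tags and 184.15-fold over the input. It rested on 499 tags, for which an exact Poisson 95% interval runs from 456 to 545 and covers counting error only. The second, at chr9:25316567-25316751, lay in Eepd1, a gene linked to ABCA1-dependent cholesterol efflux, and had 650.6 normalised tags. A second peak of Eepd1, at chr9:25326969-25327153, had 478.6, so that Eepd1 was the only gene with 2 of the 20 tallest members. Next was the peak in Mylip, the ubiquitin ligase that degrades the LDL receptor, with 627.9 normalised tags at chr13:45486973-45487157, 1954 bases from the start.

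The other tall members ran from 622.6 to 443.9 normalised tags. Genes that act on the cytoskeleton or on cell polarity were Fmn1, a formin (611.9), Mical3 (586.6), Cyfip1 of the WAVE complex (543.9), Pard3 (539.9) and Myo1e, a myosin (495.9). Genes of lipid and lipoprotein traffic were Gramd1b, a sterol transfer protein (558.6), Abcg1 (499.9), Abca1 (482.6) and Lrp1, a receptor for lipoproteins and dying cells (477.3). Genes of calcium handling were Itpr1, the inositol trisphosphate receptor (523.9), and Slc8b1, the mitochondrial sodium and calcium exchanger (511.9). The others were Poc1b (622.6), Ankrd17 (603.9), Lax1, an adaptor of lymphocyte signalling (493.3), and Parp8 (443.9). The member in Rn45s, the ribosomal RNA precursor (461.3), stood apart in its input: it held 42.9 input tags against a median of 1.4 over members, was 8.06-fold over the input and had a focus ratio, the share of tags near the centre, of 0.53 against a median of 0.82. Whether repeated sequence contributed there was not tested.

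Of 33 genes listed as LXR targets, 20 held a member, and these genes held 79 members in all. Abca1 had 14, Mertk, a receptor for dying cells, had 12, Tmem135 had 8, Abcd2 and Abcg1 had 7 each and Lpcat3, which remodels phospholipids, had 5. Among the 79, 19 (24.1%) reached 100 normalised tags, against 5.92% of all members. Per 100 kb of span in which a member could lie (more than 1 kb from any start, called allowed bases here), listed targets that passed the RNA filter had 7.62 members, against 3.16 over all genes that passed it. The list was drawn up from what is known of LXR, so its agreement with LXR peaks is not independent of how the list was made.

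Peaks in the efflux genes were spread along the gene and were not gathered at one place. In Abca1 the tallest member, at chr4:53128810-53128994, lay 43865 bases into a span of 129106 and had 482.6 normalised tags. Others of Abca1 lay 4151 bases (241.3), 39375 bases (113.3) and 10026 bases (98.7) from the start, and those at 4151 and 39375 bases were only 90 and 81 bases from a SREBP1 peak. In Abcg1 the 4 tallest members lay nearer the start, at 1209 bases (499.9 normalised tags, chr17:31195756-31195940), 9500 bases (386.6), 15816 bases (359.9) and 17929 bases (178.6) of a 60287-base span. In Mertk the tallest lay 48692 bases in, at chr2:128573333-128573517, with 394.6 normalised tags and 17050 bases from the nearest SREBP1 peak. In Cd38, which consumes NAD, members of 278.6 and 200 normalised tags lay 13495 and 8815 bases from the start, and in Tgm2, a transglutaminase, members of 246.6, 188 and 110.6 lay 15514, 13181 and 9961 bases from the start.

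**Figure D1:**
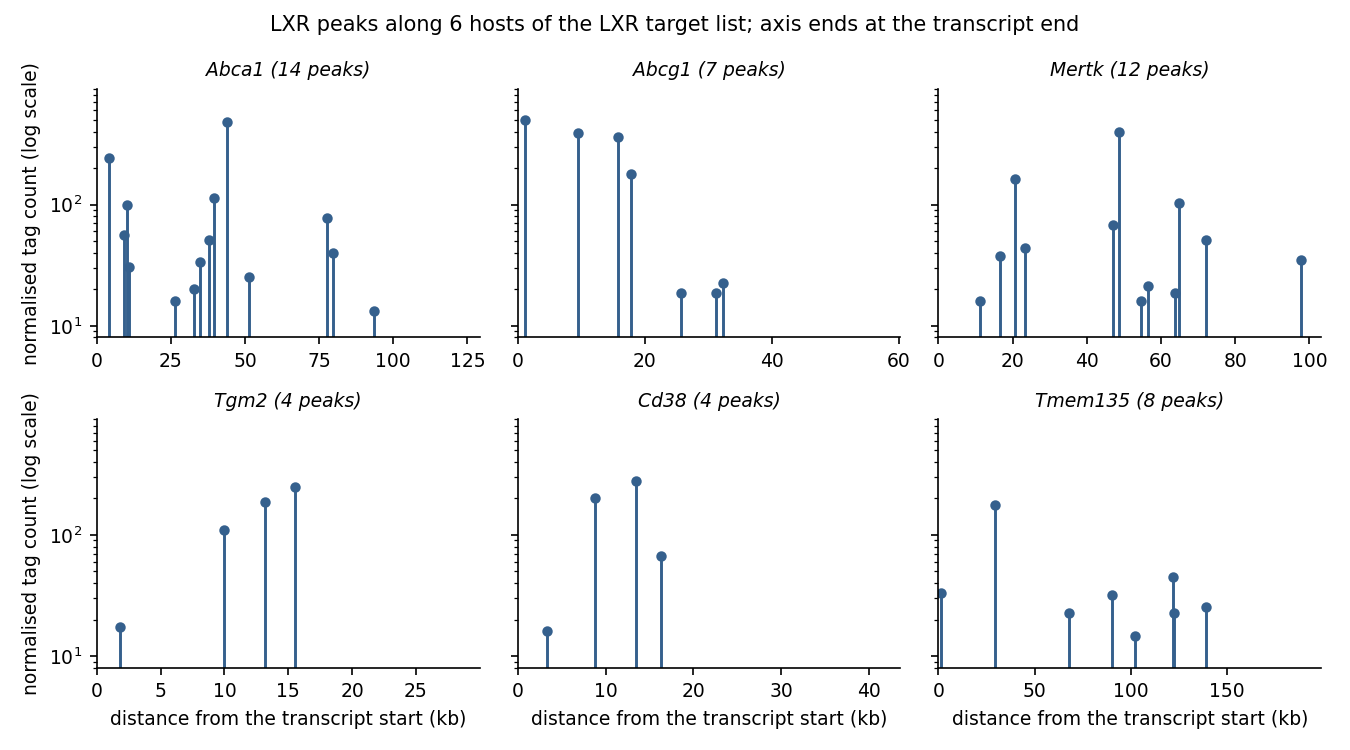
Members along 6 hosts of the LXR target list: distance from the transcript start in kb (x axis, ending at the transcript end) and normalised tag count (y axis, log scale), with 1 stem per member. Abca1 has 14 members that run from 4151 bases onwards, while the 4 tallest of Abcg1 all lie within 17929 bases of its start.

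The remaining members of the target list stood further down. Tmem135 had 1 of 176 normalised tags, Abcd2, a peroxisomal transporter of very long fatty acids, had 1 of 154.6 and 2 of 58.7, and Apoc2, the activator of lipoprotein lipase, had 1 of 138.6. Scd2, a fatty acid desaturase, had 1 of 94.7, Rnf145 had 1 of 72, Lpl, the lipoprotein lipase, had 1 of 58.7 and Aim2, a DNA sensor, had 1 of 52 among the 30 tallest of the list. The other 49 had at most 50.7 normalised tags.

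The 13 listed targets without a member included both LXR genes and several of the best known targets. For 9 of them an LXR peak of another class lay in the gene or within 10 kb, and for 6 of these at least 1 such peak shared bases with SREBP1. At Srebf1 the tallest had 643.9 normalised tags and was intragenic with SREBP1. At Scd1 it had 542.6 and was intergenic with SREBP1, and at Nr1h3, which encodes LXRα, it had 399.9 and lay at the promoter with SREBP1. At Fasn the tallest was a promoter peak of 433.3 without SREBP1, at Pltp an intergenic peak of 409.3 without SREBP1, and at Apoe and at its neighbour Apoc1 a promoter peak of 189.3 without SREBP1. Nr1h2, Abcg5, Abcg8 and Spib had no LXR peak within 10 kb.

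The members lay in 5971 of the 24014 genes of the RNA table (24.9%), and 2809 of these hosts held exactly 1. At the other end 270 hosts held 10 or more and together accounted for 22.9% of members. Lpp, which encodes a LIM protein of focal adhesions, held 44, Sgms1, a sphingomyelin synthase, 37, Asap1 33, Arid1b, a chromatin remodelling subunit, 32, and Rere 31. Snx29, Cmip and Etv6, an ETS repressor, held 29 each, the phosphodiesterase gene Pde4d 28 and Frmd4a 27, a number that Maml3 also reached. These are long genes, with spans of 204486 bases (Cmip) to 1301806 bases (Pde4d), and Pde4d was listed at no more than 0.355 RPKM in any library. A total of 232 members lay inside more than 1 gene, with the most, 25, over 1 peak in the clustered protocadherin genes, which share their last exons. They were counted for each gene.

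Per length the order of hosts was different. Among hosts with at least 5 members, Il17ra, an interleukin 17 receptor, had 30.8 per 100 kb of allowed bases, Riok3, an atypical kinase, 29.1, Cd200r1, an inhibitory receptor of myeloid cells, 28.3, and Irak2, a kinase of Toll-like receptor signalling, 25.2. Sgms1 had 14.2 and Pde4d 2.16.

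Genes with more RNA in untreated macrophages carried more members per length. Over all genes the density was 0.463 members per 100 kb of allowed bases at 0 RPKM (mean of both untreated libraries), 1.09 at over 0 to 1, 2.11 at 1 to 5, 3.09 at 5 to 20, 5.04 at 20 to 100 and 8.23 above 100 RPKM. The same order held in each class of gene span except that 2 neighbouring steps in spans of 10 to 30 kb were close, at 2.08 and 2.01. Above 100 RPKM the density was 8.46 in spans of 2 to 10 kb, 9.03 in 10 to 30 kb, 8.15 in 30 to 100 kb and 6.81 in spans over 100 kb, and at 0 RPKM it was 0.892, 0.944, 0.797 and 0.257. In spans of 30 to 100 kb, 89.9% of genes above 100 RPKM held a member and 21.0% of genes at 0.

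**Figure D2:**
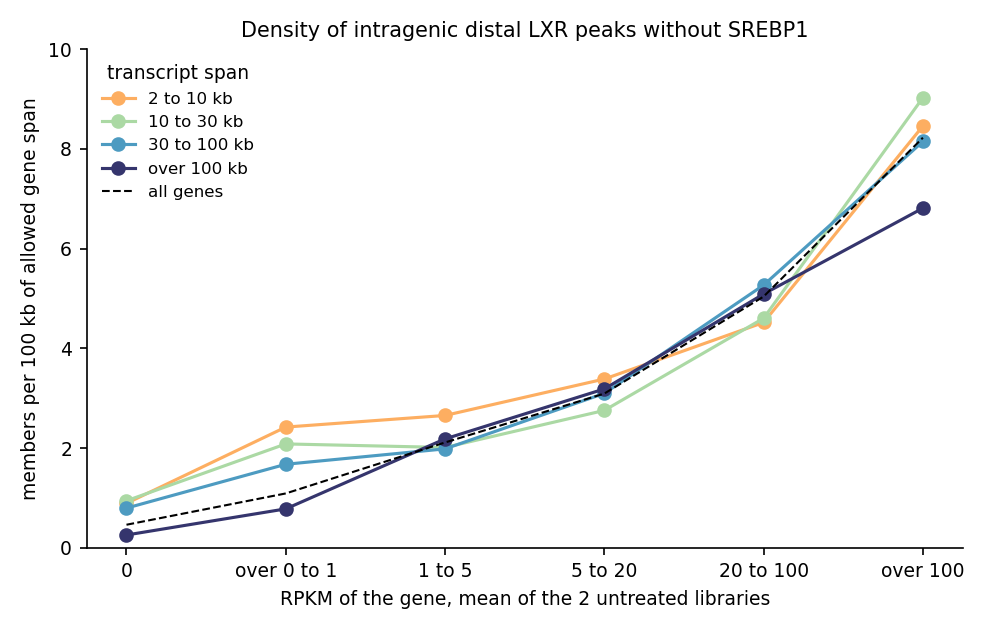
Members per 100 kb of allowed gene span (y axis) by the gene's RNA level as the mean of 2 untreated libraries (x axis, RPKM classes), with 1 line per class of transcript span and a dashed line for all genes. The dashed line runs from 0.463 to 8.23, and all 4 span classes end between 6.81 and 9.03.

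The height of the members moved less than their number. By the RPKM of the most abundant host, the median was 25.3 normalised tags at 0 RPKM and 34.7 above 100, and the share that reached 100 tags was 5.18% and 10.1%. The input differed too, with a mean of 1.33 tags per member at 0 RPKM and 1.62 above 100, and the part of the input in the densities was not tested. The median fold over the input was 19.9 and 20.7.

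A gene was called tested if it reached 1 RPKM in at least 2 of the 6 RNA libraries. Of the 10605 tested genes 4288 (40.4%) held a member, against 1683 of the 13409 others (12.6%). Tested genes held 13115 members (78.9%) while they made up 43.1% of allowed bases, which gives 3.18 members per 100 kb against 0.646 in the others.

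Within tested genes members were densest near the start. Density was 6.74 per 100 kb at 1 to 2 kb from the nearest start, 4.28 at 2 to 5 kb, 3.62 at 5 to 10 kb, 3.29 at 10 to 20 kb, 2.98 at 20 to 50 kb, 2.67 at 50 to 100 kb and 1.88 farther away. In the other genes it ran from 1.22 to 0.254. Most members were nonetheless far from a start, with a median distance of 19358 bases, quartiles of 7351 and 44772 and a highest distance of 1334446. Within spans of at least 30 kb, cut into 10 equal parts, tested genes went from 4.97 members per 100 kb in the part at the start to 2.03 in the part at the end, each part below the one before it. The other genes went from 0.551 to 0.729 and showed no such decline.

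**Figure D3:**
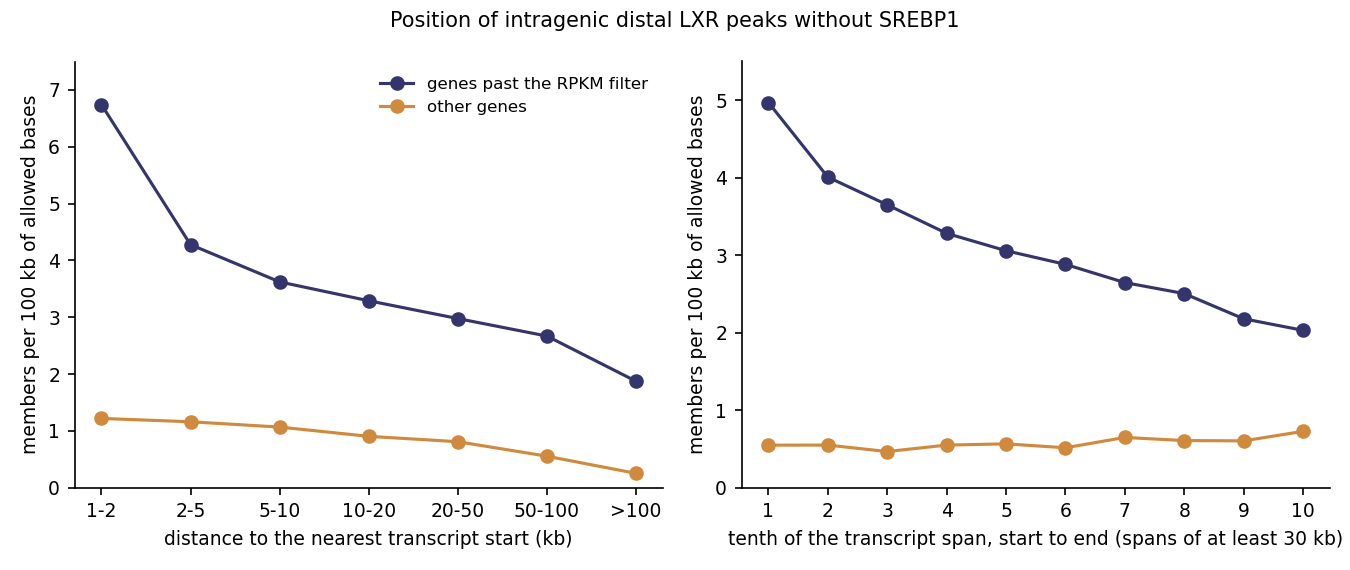
Members per 100 kb of allowed bases by distance to the nearest transcript start in kb (left) and by 10 equal parts of the transcript span, start to end, for spans of at least 30 kb (right), for genes past the RPKM filter and other genes. Genes past the filter go from 6.74 to 1.88 with distance and from 4.97 to 2.03 along the span, while the others stay at or under 1.22 in both.

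Whether a member lay in an exon, an intron or an untranslated region was not analysed here, since the table gives a span and a length for each transcript. Transcript length was 4.82% of span over host genes, so the spans are mostly intron.

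Members often had other members close by. The median distance to the nearest was 5890 bases, close to the 5957 between intergenic peaks without SREBP1, and 24.7% had one within 2 kb. Runs of 4 or more members with gaps of at most 2 kb numbered 18, and the longest had 5: one of 5604 bases in Nod1, a sensor of bacterial peptidoglycan, and one of 6236 bases in Srgap2. All 5 peaks in Nod1 were modest, at 21.3 to 34.7 normalised tags. Another run of 4 lay in Cd9, a tetraspanin gene, with 26.7 to 56.

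SREBP1 was near a minority of members. The median gap to the nearest SREBP1 peak was 17999 bases, and 9.67% of members had one within 1 kb, as had 9.13% of intergenic and 36.7% of promoter LXR peaks without SREBP1. Taller members had a SREBP1 neighbour more often: with members ranked by tag count into 5 equal classes, the share within 1 kb was, from lowest to highest, 6.76%, 7.25%, 8.66%, 11.5% and 14.2%. It was 20.9% (49 of 235) among members of at least 200 normalised tags. Of the tallest, the member in Fmn1 lay 42 bases from a SREBP1 peak, that in Pard3 57, that in Abcg1 277 and that in Mylip 635, while the member in Col4a3bp lay 77022 bases away.

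The gene groups other than LXR targets differed widely in how many of their genes hosted a member, with 24.9% of all genes as the background and gene length and RNA level not matched. Hosts were most frequent among integrins and actin regulators (42 of 44 genes, 294 members) and kinases and phosphatases of myeloid signalling (43 of 46, 274 members). In the first group the tallest were in Myo1e (495.9), Wasf2 of the WAVE complex (353.3), Itga9, an integrin chain (349.3), and Arhgap26 (269.3). In the second they were in Prkcd, a protein kinase C (434.6), Jak1 (206.6), Syk (196) and Map4k4 (193.3).

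Lysosome and autophagy genes hosted members in 29 of 40, with the tallest in Mcoln2, a lysosomal channel (244), Lipa, the lysosomal acid lipase (150.6), Tfec (144) and Uvrag (136, one of 21 members). Scavenger and apoptotic cell receptors did so in 20 of 29, led by Lrp1, Mertk, Axl (173.3) and Stab1 (145.3). Cholesterol and phospholipid transporters did so in 23 of 34, where Abcc3 (244) followed Abcg1 and Abca1. Fatty acid genes held 44 members in 17 of 27, with the acyl-CoA synthetases Acsl4 (367.9) and Acsl3 (229.3) first. Cholesterol synthesis and uptake genes held 26 in 13 of 28, all modest: Msmo1 (65.3), Mvd (61.3), Npc2 (60) and Fdft1 (53.3) were the tallest.

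Transcription factors of the macrophage lineage held 140 members in 23 of 41 genes, the tallest in Tcf4 (252), Elk3 (189.3), Fli1 (177.3) and Bhlhe41 (156). Other nuclear receptor genes held 53 in 15 of 27, with 1 of 315.9 in Rara, a retinoic acid receptor, 1 of 98.7 in Nr2c2 and 10 in Pparg, of which the tallest had 97.3. LXR receptors, their partners and coregulators held 51 in 13 of 20, led by the acetyltransferase gene Crebbp (200) and the coactivator Ncoa3 (138.6). Toll-like receptor signalling genes held 43 in 14 of 26, with Ikbke (278.6), Irak4 (154.6), Irak3 (128) and Irak2 (101.3, one of 14). Inflammatory genes held 47 in 25 of 46, with Tnfaip3, which encodes the inhibitor A20 (289.3), Il1a (192), Tnip1 (174.6) and Tnfaip2 (173.3). Interferon response genes held 18 in 13 of 36, the tallest in Dhx58 (145.3). All 36 were tested genes, and they had 2.93 members per 100 kb of allowed bases, near the 3.16 of all tested genes. Tested genes of the other nuclear receptor list had 2.56, and LXR receptors, partners and coregulators 2.97. The density was 3.66 for fatty acid genes, 3.77 for transporters, 4.32 for integrins and actin regulators and 4.46 for scavenger receptors. It was 4.84 for cholesterol genes, 5.28 for lysosome, 6.20 for kinase, 6.33 for inflammatory, 6.61 for lineage factor and 7.41 for Toll-like receptor genes.

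Markers of other cell types hosted members about as often as all genes (24.9%) or less, apart from dendritic cell markers (33.3%), in lists of 9 to 12 genes. Neutrophil markers had 6 in 3 of 11 genes, B cell markers 4 in 2 of 10, T and NK cell markers 3 in 3 of 12, dendritic cell markers 8 in 3 of 9, mast cell and eosinophil markers 3 in 3 of 11 (27.3%, as for neutrophil markers), and fibroblast and mesothelial markers 4 in 1 of 12. Macrophage markers had 36 in 9 of 11, led by Mertk, Mrc1, the mannose receptor (77.3), Itgam (62.7) and Csf1r (54.7). Per 100 kb of allowed bases the neutrophil markers held 8.13 members (6 in 73800 bases) and the macrophage markers 7.15, against 1.73 over all genes. The dendritic cell markers held 2.53, mast cell and eosinophil markers 1.80, and fibroblast and mesothelial markers 1.47. For T and NK cell markers it was 0.700 and for B cell markers 0.576. In markers of other cells the tallest were in Pdgfrb (137.3), Mmp8 (128), Cxcr2 (48), Cd3d (42.7) and Itgae (40), against a median member of 28.0 normalised tags.

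The KLA series shows the RNA of the hosts when Toll-like receptor 4 is stimulated, a measure on which the members were not chosen. With 1 library per condition there is no test; a gene was counted as higher or lower if its log2(RPKM + 1) differed by at least 1 from the untreated library of its series, a scale that understates change in low genes. The comparisons at 1, 6 and 12 h share 1 untreated library and are not independent. Over all tested genes the median log2 difference was -0.16 after 1 h of KLA, -0.46 after 6 h, -0.32 after 12 h and -0.09 in the 24 h series, so counts of lower genes include that shift. In bulk RNA fewer cells of a type and less RNA per cell cannot be told apart.

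At 24 h, 628 of the 4288 tested hosts (14.6%) were lower and 426 (9.93%) higher, against 10.6% and 9.98% of all tested genes. At 12 h, 857 (20.0%) were lower and 403 (9.40%) higher, against 16.3% and 8.88%. At 6 h, 1048 (24.4%) were lower and 468 (10.9%) higher, against 22.4% and 9.35%, and at 1 h, 84 (1.96%) were lower and 165 (3.85%) higher, against 4.09% and 3.65%. Relative to the median of all genes the split at 6 h turned to 510 lower (11.9%) and 717 higher (16.7%), as it did over all tested genes (9.83% and 14.2%). At 12 h it was 490 lower (11.4%) and 567 higher (13.2%), against 8.73% and 12.2%, and at 24 h 549 lower (12.8%) and 470 higher (11.0%), against 9.14% and 11.0%.

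The share of lower hosts rose with the number of members at 6, 12 and 24 h, though not at every step at 6 h, and not at 1 h. At 24 h it was 7.82% of tested genes without a member, 10.1% with 1, 13.5% with 2, 17.1% with 3 to 4, 22.6% with 5 to 9 and 27.2% with 10 or more. At 12 h the same classes gave 13.8%, 16.0%, 18.7%, 21.9%, 28.5% and 28.8%, and at 6 h 21.0%, 22.0%, 25.2%, 24.9%, 29.5% and 27.2%. At 1 h the order was the opposite, from 5.54% without a member to 1.23% with 10 or more. A similar order stood between the untreated libraries, with no KLA: genes lower in that of the 24 h series made up 3.40% without a member, 1.28% with 1 and 0.823% with 10 or more. Over all spans, the shares of higher genes at 24 h had no such order, and the classes gave 10.0%, 10.1%, 10.0%, 9.96%, 11.0% and 5.76%. Earlier, the higher share also rose with member number, up to the class of 5 to 9. It was 8.30%, 9.62%, 10.6%, 12.4%, 13.0% and 12.3% at 6 h. The classes gave 8.53%, 9.25%, 9.43%, 10.2%, 10.3% and 5.76% higher at 12 h. These classes of member number were chosen after the values were seen. Gene by gene the relation was weak. Across the 4288 tested hosts the Spearman rank correlation of members per gene with the log2 difference was 0.146 at 1 h. It was -0.00613 at 6 h, -0.0714 at 12 h and -0.139 at 24 h. For members per 100 kb of allowed bases it was -0.105, -0.0742, 0.0257 and 0.00367 at 1, 6, 12 and 24 h. Members per gene also rose with span, at a correlation of 0.54.

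**Figure D4:**
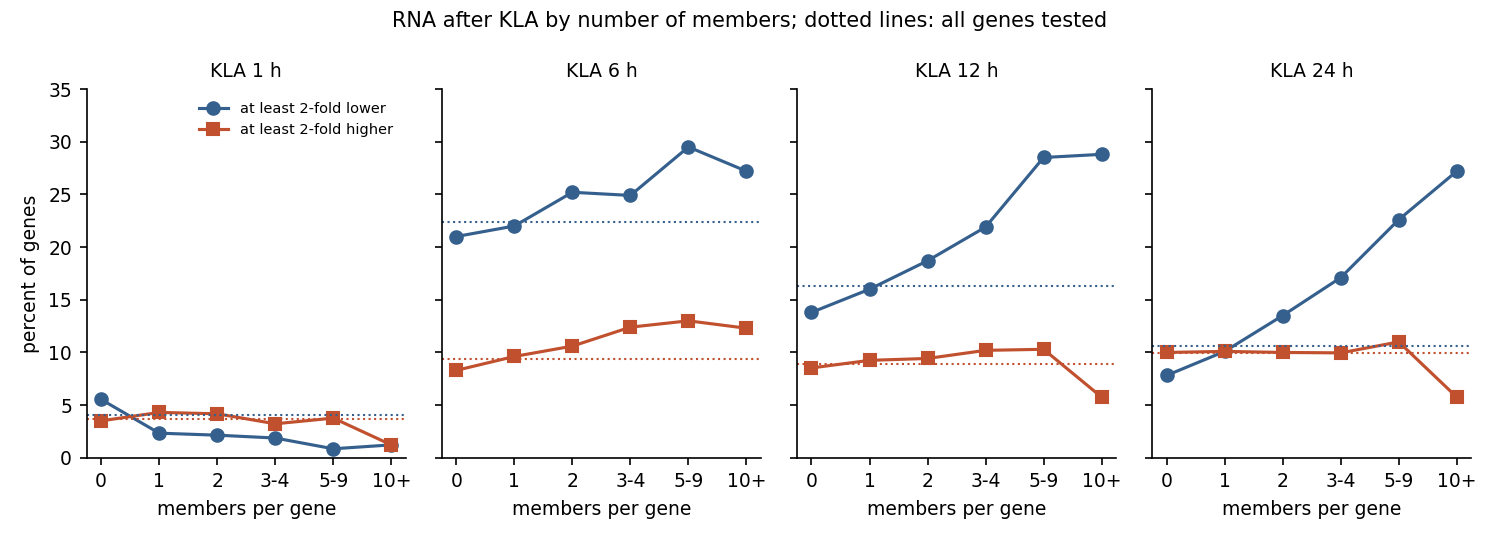
Percent of tested genes (y axis) that were at least 2-fold lower (circles) or higher (squares) on the log2(RPKM + 1) scale after KLA for 1, 6, 12 and 24 h, by the number of members per gene (x axis); dotted lines give all genes tested, and there is 1 library per condition. At 24 h the lower genes go from 7.82% without a member to 27.2% with 10 or more, while the higher genes end at 5.76%.

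Long genes and abundant RNAs hold more members, so the shares were also read within classes of both. At 24 h, in spans of 30 to 100 kb, 5.53% of genes without a member were lower, 10.2% with 1 to 2 and 19.4% with 3 or more, and in spans over 100 kb the shares were 4.93%, 9.60% and 21.5%. Within spans the higher genes followed member number too in the middle classes: they made up 8.96%, 12.0% and 15.3% in spans of 10 to 30 kb and 5.26%, 7.38% and 11.4% in spans of 30 to 100 kb, but 5.63%, 2.80% and 6.07% in spans over 100 kb. Within genes of 20 to 100 RPKM (mean of all libraries) the lower genes made up 5.09%, 10.6% and 21.9% and the higher 14.7%, 16.2% and 13.1%. Above 100 RPKM the lower made up 7.77%, 11.7% and 25.6% and the higher 29.4%, 28.2% and 17.9%. The rise was smaller in low genes at 12 h, where the lower made up 18.0%, 19.5% and 24.0% at 1 to 5 RPKM. They made up 13.2%, 17.8% and 27.7% at 5 to 20 RPKM, and 8.89%, 14.9% and 24.7% at 20 to 100 RPKM. In spans of 10 to 30 kb they made up 12.9%, 17.6% and 24.0% at 12 h. Against the other untreated library the shares of lower genes at 6 h were 20.5% without a member and 36.2% with 10 or more. They were 16.0% and 41.2% at 12 h, and 10.3% and 22.2% at 24 h, so the steepness at each time depended on the untreated library. Lower at 24 h against both untreated libraries were 5.33% of genes without a member, 18.5% with at least 5 and 21.4% with 10 or more. Over all tested genes it was 7.40%. Higher against both were 7.55%, 8.23% and 4.53% of the same classes and 7.83% of all tested genes.

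Where the peaks lay and how tall they were also went with the share of lower genes at 24 h. Only promoter LXR peaks without SREBP1 were counted here, so a gene whose promoter LXR peaks all shared bases with SREBP1 counts as having none. The share was 15.2% among tested genes with a member and no such promoter peak. It was 14.0% with both, 7.10% with such a promoter peak alone and 8.38% with neither. By the tallest member of the gene it was 9.51% at 9 to 20 normalised tags, 11.0% at 20 to 50, 18.9% at 50 to 100 and 24.3% in each of the classes above. Read the other way, 56.0% of the 1122 genes lower at 24 h held a member, against 40.3% of those higher and 38.4% of those that differed by less. Per 100 kb of allowed bases, the lower genes had 4.56 members, the higher 4.10 and the rest 2.83. At 1 h the higher genes had 6.51 and the rest 3.11, and the higher genes had a median span of 8562 bases against 21484 for the rest.

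Levels of marker RNA moved with time and their part in these shares was not tested. Macrophage markers summed to 9355 RPKM in untreated cells at 24 h and 6693 with KLA, although by gene 4 of the 10 tested were higher and 2 lower, with a median log2 difference of 0.05. Neutrophil markers summed to 60.2 and 140 with Mpo at 0 throughout, B cell markers to 33.0 and 13.7, and fibroblast and mesothelial markers to 129 and 193. Dendritic cell markers summed to 3.03 and 9.63, T and NK cell markers to 1.65 and 3.42, and mast cell and eosinophil markers to 1.36 and 4.37 with Mcpt4, Cma1, Epx and Prg2 at 0 throughout.

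Among the tested hosts of the 200 tallest members (147 of 183 genes), 36 (24.5%) were lower and 18 (12.2%) higher in the 24 h series, against 10.6% and 9.98% of all tested genes. After 12 h 44 (29.9%) were lower and 16 (10.9%) higher, against 16.3% and 8.88%. After 6 h 56 (38.1%) were lower and 20 (13.6%) higher, against 22.4% and 9.35%. After 1 h 1 (0.68%) was lower and 5 (3.4%) higher, against 4.09% and 3.65%, so the higher share was near that of all tested genes. The ratios that follow are of RPKM, with 95% exact intervals for the read counts that cover counting error only. Tnfaip3 had 15.3 RPKM untreated and 544, 150 and 91.1 after 1, 6 and 12 h, and 95.1 against 13.6 in the 24 h series. Its ratio was highest at 1 h, at 35.6 (30.2 to 42.3), and was 6.97 at 24 h. Cd38 had 3.79 RPKM untreated and 5.57, 110 and 197 at the same times, and 247 against 7.23 in the 24 h series. It was late, with a ratio of 1.47 (0.870 to 2.53) at 1 h and 34.1 (26.2 to 45.4) at 24 h.

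Tgm2 was higher from the first hour and stayed there, at 21.5 RPKM untreated, 72.1, 136 and 143 at 1, 6 and 12 h, and 144 at 24 h against 21.8. Arg2, a mitochondrial arginase, had 1 read in the first untreated library and 25 after 1 h, a ratio of 23.0 (3.76 to 943), and 3 reads against 67 in the 24 h series, a ratio of 21.6 (7.08 to 107). Parp8, which holds 1 of the 20 tallest members, was 7.01-fold higher (4.64 to 11.0) at 6 h, and Fndc3a 7.72-fold (6.42 to 9.34). Exoc3l4 was 6.70-fold higher (3.96 to 12.1) at 12 h and Pstpip2, an adaptor of the actin cytoskeleton, 5.00-fold (3.65 to 6.99) at 24 h. Stk40 was 2.34-fold higher (1.77 to 3.13) at 1 h.

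The lower hosts named next had their lowest levels at 6 h or later. St6gal1, a sialyltransferase with 16 members, had 31.5 RPKM untreated and 1.25 at 6 h, 25.2-fold lower (14.2 to 49.4), and 30.9 against 3.33 in the 24 h series. Tns1, which encodes tensin 1 of focal adhesions, was 49.9-fold lower (25.1 to 116) at 6 h and 15.2-fold (10.1 to 23.8) at 24 h. Dnmt3a, a DNA methyltransferase with 16 members, had 119 RPKM untreated and 17.2 with KLA at 24 h, 6.88-fold lower (6.20 to 7.65). Tspan14, a tetraspanin with 11 members, was 9.13-fold lower at 6 h and 6.87-fold at 24 h, and Mbnl1, a splicing regulator with 15, was 6.30-fold lower at 12 h and 5.42-fold at 24 h. The untreated libraries of Mbnl1 differed, at 93.5 and 168 RPKM, and against the other one it was 3.02-fold lower at 24 h.

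Other hosts were lower at 6, 12 and 24 h alike, and are given at the time that named them. Snx29 had 26 reads untreated and 0 after 6 h, at least 9.33-fold lower against a floor of 3 reads in that library, while the exact interval of the counts begins at 7.06-fold. 5430435G22Rik was 9.32-fold lower (7.54 to 11.6) at 6 h, and at 12 h Adssl1, a purine nucleotide enzyme, was 9.03-fold lower (5.26 to 16.6) and Mctp1 8.39-fold (5.51 to 13.3). At 1 h the lowest were small and rested on few reads: Senp8 was 3.27-fold lower (1.34 to 9.09), Fam78a 2.64-fold (1.38 to 5.33), Arhgap26 2.72-fold (1.26 to 6.35) and Foxo3 1.97-fold (1.34 to 2.94). Rn45s was 1.65-fold lower.

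LXR target hosts went in different directions after KLA. Of 18 tested, 3 were higher and 5 lower at 6 h, where 9.35% and 22.4% of all tested genes were. Then 3 were higher and 4 lower at 12 h (8.88% and 16.3% of all), and 4 higher and 2 lower at 24 h (9.98% and 10.6%). Their median log2 difference was -0.30 at 6 h, -0.63 at 12 h and -0.02 at 24 h, against -0.46, -0.32 and -0.09 over all tested genes, and counts this small are not set apart from those shares. Abcg1 had 46.5 RPKM untreated and 31.3, 17.0 and 15.2 after 1, 6 and 12 h, and 52.5 against 26.8 in the 24 h series. It was 3.05-fold lower (2.61 to 3.58) at 12 h and 1.96-fold (1.74 to 2.21) at 24 h, while both untreated libraries were close. Abca1 had 5.79 RPKM untreated and 9.34, 13.2 and 15.9 after KLA, and 12.9 against 29.8 in the 24 h series. Its untreated libraries were far apart: the ratio at 12 h was 2.74 (2.24 to 3.36) against its own untreated library and 1.23 against the other, while at 24 h it was 2.31 (2.03 to 2.63) and 5.15.

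Mylip had 7.15 RPKM untreated and 4.61, 2.40 and 3.70 after 1, 6 and 12 h, and 7.52 against 3.89 in the 24 h series, and was lowest at 6 h, 2.97-fold (1.68 to 5.53). Abcd2 had 4.42 RPKM untreated and 3.01, 0.228 and 0.0738 after KLA, and 5.93 against 0.270 in the 24 h series, 22.0-fold lower (8.27 to 82.5). Mertk stayed between 18.5 and 38.8 RPKM in all libraries and was 1.04-fold (0.874 to 1.23) of its untreated library at 24 h.

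**Figure D5:**
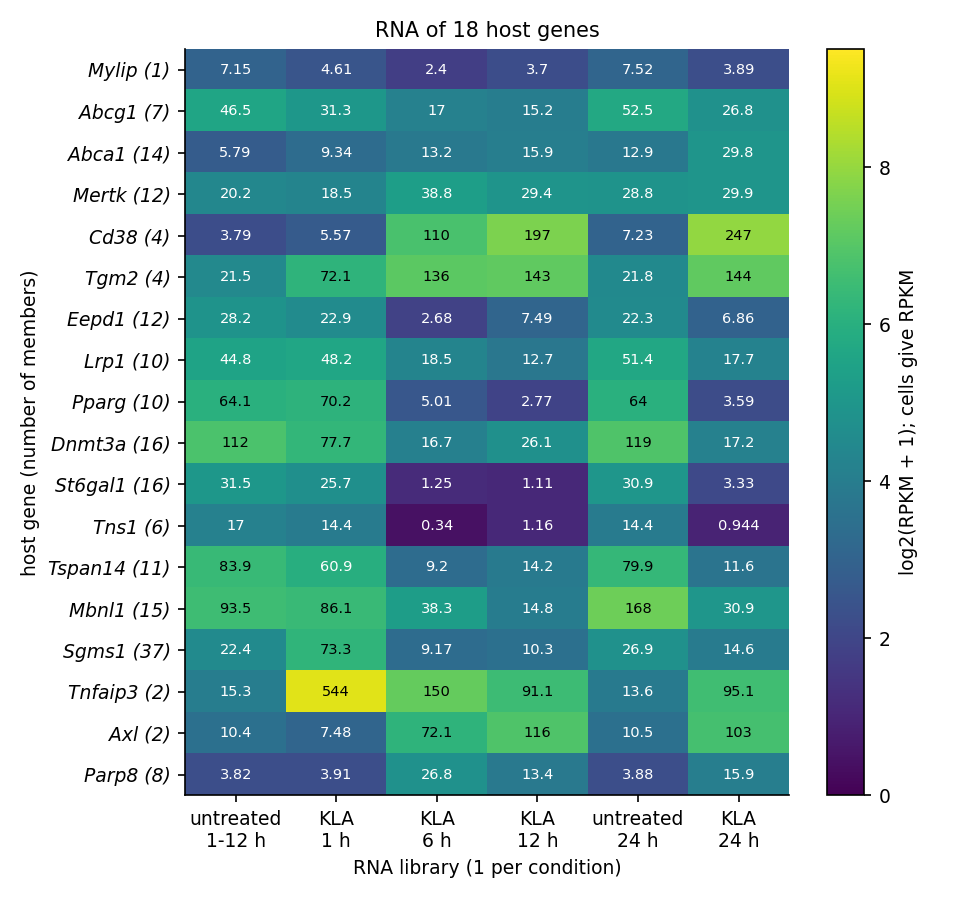
RNA of 18 host genes (number of members in brackets) in the 6 libraries, 1 per condition; colour is log2(RPKM + 1) and each cell gives RPKM. Cd38 goes from 3.79 to 197 RPKM by 12 h and Pparg from 64.1 to 2.77, while Mertk stays between 18.5 and 38.8.

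The groups of hosts were read against the shares of all tested genes, which were 22.4%, 16.3% and 10.6% lower and 9.35%, 8.88% and 9.98% higher at 6, 12 and 24 h. Of 13 tested interferon response hosts, 13 were higher at 6, 12 and 24 h, and of 25 inflammatory hosts 18, 22, 19 and 18 were higher at 1, 6, 12 and 24 h and none lower. Over all tested genes of these lists, with or without a member, 36 of 36 and 37 of 45 were higher at 24 h. Cholesterol and phospholipid transporter hosts were lower in 8, 9 and 8 of 20 at 6, 12 and 24 h and higher in 4, 4 and 3. Scavenger receptor hosts were lower in 5, 9 and 7 of 17 and higher in 3 at each of these times. The extremes were Mrc1, 11.3-fold lower (9.07 to 14.3) at 24 h, and Axl, 9.79-fold higher (8.17 to 11.8). Over all tested transporters, with or without a member, 9, 9 and 9 of 27 were lower and 4, 4 and 3 higher. Of all tested scavenger receptors 7, 12 and 9 of 23 were lower and 4, 5 and 5 higher.

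Integrin and actin hosts were lower in 12, 16 and 14 of 39 at 6, 12 and 24 h and higher in 6, 3 and 5. Myo1e among them went from 55.4 to 20.5 RPKM at 24 h, 2.70-fold lower (2.34 to 3.12). Lysosome and autophagy hosts were lower in 7, 7 and 8 of 29 and higher in 1, 1 and 2, and at 6 h that was near the share of all genes. Lipa went from 1275 to 168 RPKM at 24 h, 7.60-fold lower (7.17 to 8.05). Of 9 nuclear receptor hosts 4, 2 and 3 were lower and none was higher. Pparg, the receptor with 10 members, had 64.1 RPKM untreated and 70.2, 5.01 and 2.77 after 1, 6 and 12 h, and 64.0 against 3.59 in the 24 h series, 17.8-fold lower (10.9 to 31.0). Kinase and phosphatase hosts were lower in 8, 6 and 5 of 40 and higher in 9, 7 and 5, so their lower counts were near those shares. Over all tested genes of these lists, with or without a member, 12, 16 and 14 of 41 integrin and actin genes were lower. So were 11, 9 and 9 of 40 lysosome and autophagy genes, 5, 3 and 3 of 12 nuclear receptors and 8, 6 and 5 of 43 kinases and phosphatases.

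Of the hosts with the tallest or the most members, 3 are given as examples, all lower at 6 h. Others among the hosts with most members differed at 6 h. Etv6 went from 6.07 to 16.3 RPKM and Frmd4a from 8.58 to 22.9, Asap1 had 13.0 and 12.8, and Rere went from 11.2 to 2.60 and Arid1b from 4.49 to 2.27. Eepd1 had 28.2 RPKM untreated and 22.9, 2.68 and 7.49 after 1, 6 and 12 h, and 22.3 against 6.86 in the 24 h series, and was lowest at 6 h, 10.5-fold (6.37 to 18.5). Lrp1 had 44.8 RPKM untreated, 48.2, 18.5 and 12.7 at 1, 6 and 12 h, and 51.4 against 17.7 at 24 h, 2.91-fold lower (2.67 to 3.17). Sgms1, with 37 members, had 22.4 RPKM untreated and 73.3, 9.17 and 10.3 after KLA, and 26.9 against 14.6 in the 24 h series, so that it was 3.28-fold higher (2.75 to 3.93) at 1 h and 2.44-fold lower (1.83 to 3.27) at 6 h.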

How the data were processed

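The authors' deposited files were a table of RPKM per RefSeq transcript for 6 poly(A) RNA libraries, and HOMER peak lists for LXR and SREBP1, in mm9 coordinates. The submitters' processing notes name mm9, Bowtie 0.12.7, STAR and HOMER. Per the file headers, peaks were called against input at a false discovery rate of 0.001, with at least 4-fold more tags than the input, a Poisson p-value of at most 0.0001 against it, and at least 4-fold more than the neighbouring 10000 bases. The deposited whole tag counts, normalised tag counts (a signal per 10000000 tags), fold ratios over input, focus ratios (a fraction) and caller scores are the authors' own values. The LXR input came from cells given KLA for 24 h, per the file headers, and the SREBP1 list from a combined tag directory. The score and the p-value of each deposited peak were used for no result.

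Here, peaks were joined to transcript spans in Python 3.11.15 with pandas 2.3.3, NumPy 2.4.6 and SciPy 1.17.1, and figures were drawn with Matplotlib 3.10.9. A shared base was needed for overlap. RPKM was taken per gene symbol and tested genes had at least 1 RPKM in at least 2 libraries; a pseudocount of 1 RPKM was used. Reads were recovered from RPKM, and 99.97% of values in each library came out whole within 0.01; these reads served for the intervals. With 1 library per condition no model was fitted. Whether libraries came from separate mice is not stated. Scripts were tested on simulated data. Of 103 samples in the labels, 8 were used.

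Genes were named by rule: the 20 tallest members, the 30 tallest of the LXR targets, the 10 hosts with most members, 4 genes per other list, peaks at the limits, and, among hosts of the 200 tallest members, the 5 highest and 5 lowest log2 differences per time whose interval excluded 1. Members, lists and rules were chosen with earlier results of these data known. Peak sequences and motifs were not analysed, since the reference at hand was of another build than mm9.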

Additional observations from a re-analysis of the deposited data

Results flagged for a closer look

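Sgms1, a sphingomyelin synthase gene with 37 members, moved in opposite directions between times after KLA. Its log2(RPKM + 1) differed from the untreated library by 1.67 at 1 h, by -1.20 at 6 h and by -1.05 at 12 h. The difference between the times was not tested, since each rests on 1 library and all use the same untreated one.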

How the results depend on the processing

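Of 109 values recomputed under alternatives for 15 results, 78 stayed within their limits and 31 moved. For counts of members or hosts the limit was a change by a factor of 1.5. For medians and shares it was a 95% interval over members or genes, which are not replicates, so small changes count as moved. The tally therefore mixes unlike limits. Other choices of member moved the median distance to a start (19358 bases) to 19938 with no SREBP1 peak within 1 kb and 20923 with NM transcripts alone. It became 21398 at over 2 kb from starts and 25768 at over 5 kb, where the cut takes out the nearest members and can only raise it. The share of tested genes with a member (40.4%) became 37.2% at 2 kb, 31.4% at 5 kb, 38.2% without SREBP1 within 1 kb, 37.7% at a fold of at least 8 over input and 27.4% when members needed the median tag count of the LXR list. These choices only remove members, so the share could only fall. The choice by median tag count left 8337 members in 3852 hosts. Their median of 44 normalised tags was raised by the cut itself, and a fold of at least 8 gave a median of 30.7. Peaks that only touch, counted as shared after the data were seen, left 16624 members.

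Of 56 alternatives for counts of hosts after KLA, 9 moved. Lower hosts at 1 h (84) became 188 with a pseudocount of 0.1 RPKM, 25 with 3 RPKM, 44 after centring on the median and 141 against the other untreated library. These are 4.38%, 0.583%, 1.03% and 3.29% of tested hosts, against 8.30%, 1.20%, 2.49% and 4.95% of all tested genes, so all genes moved with them. At 6 h, 1048 lower became 656 with 3 RPKM and 510 after centring, and 468 higher became 717 after centring. These are 15.3%, 11.9% and 16.7%, against 12.9%, 9.83% and 14.2% of all. At 12 h, 857 lower became 511 with 3 RPKM and 490 after centring, or 11.9% and 11.4% against 8.68% and 8.73%. Among genes with at least 5 members, the share lower at 12 h (28.6%) became 34.5% with 0.1 RPKM, 19.2% with 3 RPKM, 24.0% with no filter, 18.3% after centring and 37.8% against the other untreated library, where genes without a member gave 22.0%, 6.47%, 5.14%, 6.90% and 16.0%. At 24 h (24.0%) it became 29.3%, 17.8%, 20.1% and 20.6% under the same settings other than centring, beside 12.2%, 4.21%, 3.01% and 10.3%. The cause of these moves was not tested. These shares were added after the data were seen.

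No paired analysis was possible because each condition has 1 library. No replicate was left out, for the same reason. The 3 motif alternatives were not run for lack of an mm9 genome. Depth limits weak members, which rest on as few as 7 tags, and low RNAs.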

Other observations

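Members on chromosome X were sparse. Tested genes there had 1.62 members per 100 kb of allowed bases, against 2.33 (chromosome 18) to 3.67 (chromosome 16) on the autosomes. The mean number of input tags at members was 0.881 on X and 1.39 to 1.56 on the autosomes, the median normalised tag count 24 against 26.7 to 29.3, and the median fold over input 31.0 against 17.7 to 22.1. The mice were male, and the part of chromosome number in these values was not tested.

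A few hosts of long spans carried many members at almost no RNA. Pde4d, with 28 members, was listed at 0 to 0.355 RPKM and Maml3, with 27, at 0.126 to 1.07 RPKM. Genes at 0 RPKM in both untreated libraries held 1639 members in 856 genes.

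Genes lower at 6, 12 and 24 h alike made up 3.78% of tested genes without a member, 9.86% of those with one and 18.9% of those with 10 or more. Genes higher at all of these times made up 5.16%, 6.27% and 2.88%. The times 6 and 12 h share an untreated library, so these shares count gene behaviour in 5 libraries, not independent repeats.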
